A study of Arabidopsis with 24 samples.

Results

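The genes described here are 89 Arabidopsis genes of the 32833 in the deposited expression values. They were chosen by the size of their low R:FR response in 3 of the 4 genotypes, where R:FR is the ratio of red to far-red light. For each genotype, a ratio was formed from the mean of the 3 low R:FR libraries and the mean of the 3 white light (WL) libraries, in FPKM (fragments per kilobase of transcript, scaled to the size of the library) with 0.5 added to each. Genes with a mean of at least 1 FPKM over all 24 libraries were kept, 19352 genes, if the ratio was at most 0.5 in Col-0 and above 0.6 in both dvl1-1D and bsk36. In Col-0, 244 genes had a ratio of at most 0.5. The 89 members are the ones among them with the weaker response in both mutants, after LSU1 and LSU2 were left out by name. The low R:FR response in Col-0, dvl1-1D and bsk36 therefore chose the genes, and their values in these 3 genotypes are given as a description. The response in pif47 was not used in the choice and was tested.

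Whole seedlings were grown for 6 days and harvested in WL or after 6 h of low R:FR, at an R:FR of 0.3 in the sample labels. The study asked how RTFL18 and the kinases BSK3 and BSK6 shape the transcription that responds to low R:FR, with pif47 for comparison. Each genotype had 3 libraries in each light condition. The mutant dvl1-1D is 1 activation-tagged line, with a T-DNA in the promoter of RTFL18, which encodes a small RTFL/DVL peptide, and it overexpresses that gene. The mutant bsk36 carries T-DNA insertions in BSK3 and BSK6, which encode brassinosteroid signaling kinases. The mutant pif47 lacks normal PIF4 and PIF7, which encode bHLH transcription factors of the shade response. Col-0 is the wild type.

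Low R:FR is the light signal of neighbouring leaves, which take up red light and pass far-red light on. It lowers the activity of the photoreceptor phytochrome B, after which PIF proteins accumulate and growth genes are transcribed, and the seedling lengthens its petioles and hypocotyl. Other genes lose transcript in shade, among them genes for building chloroplasts, for taking up nutrients by the root and for defence, and the members belong to that side of the response.

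Library sums of FPKM ran between 758368 and 801109, and the number of reads is unknown. The steps between low values gave a relative depth of 0.832 to 1.19, and the shallowest library was Col-0 low R:FR replicate 2. RTFL18 was at 517 to 975 FPKM in the 6 dvl1-1D libraries and at 0 to 12.9 FPKM in the others. BSK3 was at most 0.03 FPKM in bsk36 and at least 20.5 FPKM elsewhere, and BSK6 was at 0.30 to 0.75 FPKM in bsk36 and at least 7.83 FPKM elsewhere. PIF7 was at 0.53 to 1.34 FPKM in pif47 and at least 9.83 FPKM elsewhere. PIF4 transcript was lower but present in pif47, at 7.67 to 8.05 FPKM in low R:FR, against 22.1 to 32.8 FPKM elsewhere, and at 1.64 to 2.34 FPKM in WL, against 5.93 to 10.9 FPKM elsewhere. Its pif47 level in low R:FR was thus within the WL range of the other genotypes. All 5 leaf mesophyll markers, all 5 root hair markers and all 7 endodermis markers were above 0 in every library. Col-0 low R:FR replicate 3 was the highest of the 3 libraries for 43 of the 54 nuclear protein-coding members, against 9 for replicate 1 and 2 for replicate 2. Among the other 35 members, replicate 3 was the highest for 11, replicate 1 for 12 and replicate 2 for 4. The share over all genes was not computed. With Col-0 low R:FR replicate 3 left out of the ratios, 171 genes met the rule, 84 of the 89 members among them. In whole seedlings, fewer cells of a type and less RNA per cell cannot be told apart. The labels do not say that the replicates came from separate cultures, so p-values measure the spread between these libraries only.

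Of the 89 members, 54 were nuclear protein-coding genes, 31 were genes for non-coding RNAs and 4 were plastid genes. Non-coding RNAs made up 34.8% of the members, 14.8% of the 155 other genes with a ratio of at most 0.5 in Col-0, and 3.65% of all genes with a mean of at least 1 FPKM. The 2 kinds differed in how well they were measured. Of the 54 protein-coding members, 48 were above 0 in all 24 libraries, whereas 9 of the other 35 members were. For 9 of these 35, a single Col-0 WL library carried the whole Col-0 WL level. Most statements below are therefore about the protein-coding members.

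The ratio of the protein-coding members had a median of 0.783 in dvl1-1D, 0.731 in bsk36, 0.766 in pif47 and 0.438 in Col-0. The rule itself fixed the smaller response in dvl1-1D and bsk36. Within it, 43 of the 54 had a ratio between 0.6 and 1 in dvl1-1D, and 49 did in bsk36. Of the 19352 genes with a mean of at least 1 FPKM, 8380 and 9650 lay there. Nothing is read from these counts, since the rule used the same ratios. The rule did not use the pif47 ratio, and pif47 entered it only through the mean FPKM over all libraries. In pif47, 7 of the 54 had a ratio of at most 0.5, 5 lay between 0.5 and 0.6, 33 between 0.6 and 1 and 9 above 1. The pif47 counts over the 19352 genes were 103, 113, 8714 and 10422 in the same order. Across all genes with a mean of at least 1 FPKM, the median ratio was between 0.996 and 1.04 in each of the 4 genotypes. All 3 low R:FR libraries lay below all 3 WL libraries for 24 of the 54 in dvl1-1D, 19 in bsk36, 30 in pif47 and 50 in Col-0. Of all tested genes, 15.7% had this order in dvl1-1D, 16.7% in bsk36, 17.8% in pif47 and 18.4% in Col-0. The rule used the ratios of the means of these libraries in all genotypes but pif47, so nothing is read from their orders there.

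**Figure D1:**
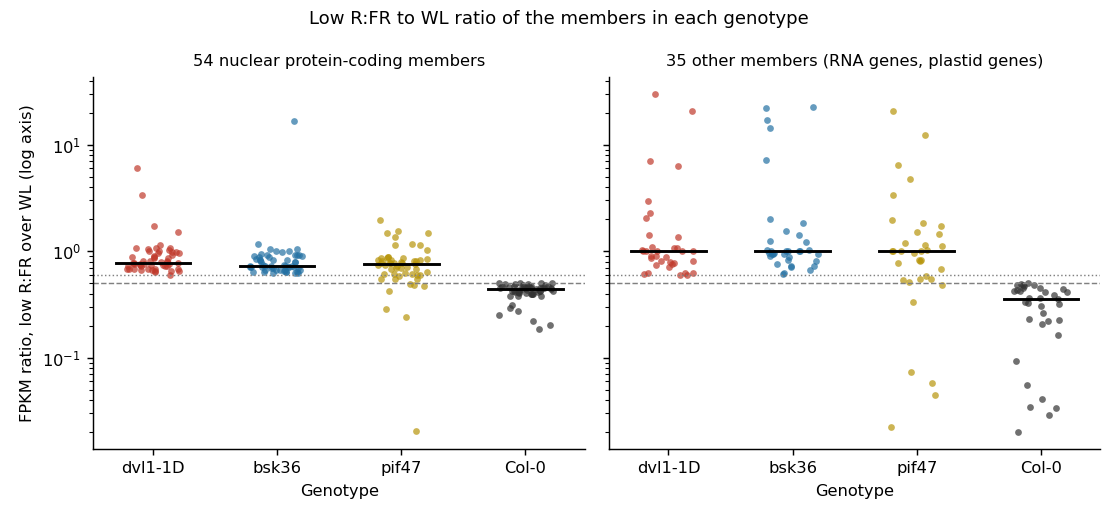
Ratio of the mean FPKM in low R:FR to that in WL, with 0.5 added to each, on a log axis, for each of the 54 nuclear protein-coding members (left) and the 35 other members (right) in dvl1-1D, bsk36, pif47 and Col-0. Points are genes, black bars are medians, and the dashed and dotted lines mark the limits of 0.5 and 0.6 in the rule. The protein-coding medians are 0.783, 0.731, 0.766 and 0.438, and the other members spread far more.

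The members nearest the limits were the following. Inside the Col-0 limit were ALMT5, AT2G08470 and AT1G52270, with ratios of 0.5, 0.4996 and 0.4988, and just outside were AT5G01881, UGT74B1 and AT3G01505, with 0.5002, 0.5002 and 0.5008. Inside the dvl1-1D limit were HSP70-7, AT2G08470 and MIR157C at 0.6021, 0.6025 and 0.6030, and outside it GAD4, RL4 and AT2G08235 at 0.5957, 0.5903 and 0.5897. Inside the bsk36 limit were AT2G08610, F6'H1 and MIR157C at 0.6149, 0.6236 and 0.6255, and outside it AT1G05700, AT4G05775 and LLP at 0.5945, 0.5909 and 0.5892. The mean FPKM was 1.003, 1.011 and 1.026 for AT2G40435, CYP71A12 and AT1G06002 inside that limit, and 0.974, 0.924 and 0.917 for AT3G04785, AT2G07175 and AT5G62420 outside it. UGT74B1 encodes an enzyme of glucosinolate synthesis, the pathway of the member CYP83B1.

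A mutant ratio above that of Col-0 can come from a higher level in low R:FR, from a lower level in WL, or from both. By the rule, each member had either or both of these differences in dvl1-1D and in bsk36. In dvl1-1D, the protein-coding members were higher than in Col-0 in low R:FR by a median of 0.46 on the log2 scale and lower in WL, with a median difference of -0.35. Both differences were present in 46 of the 54. In bsk36, the medians were 0.27 in low R:FR and -0.50 in WL, and the WL difference was the larger of the pair in 37 of the 54. In pif47, the medians were 0.56 in low R:FR and -0.09 in WL, and 18 members were higher in low R:FR without being lower in WL. Every pif47 library was above every Col-0 library in low R:FR for 25 of the 54, and every bsk36 library was below every Col-0 library in WL for 37. Of all tested genes, 16.6% and 10.8% had these orders. Nothing is read from these orders, or from the medians and counts of level differences above. The choice of the members used the Col-0, dvl1-1D and bsk36 libraries, and those counts were not computed over all genes. All 3 mutants were set against the same 6 Col-0 libraries, so these values are not independent of each other, and no test is given.

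**Figure D2:**
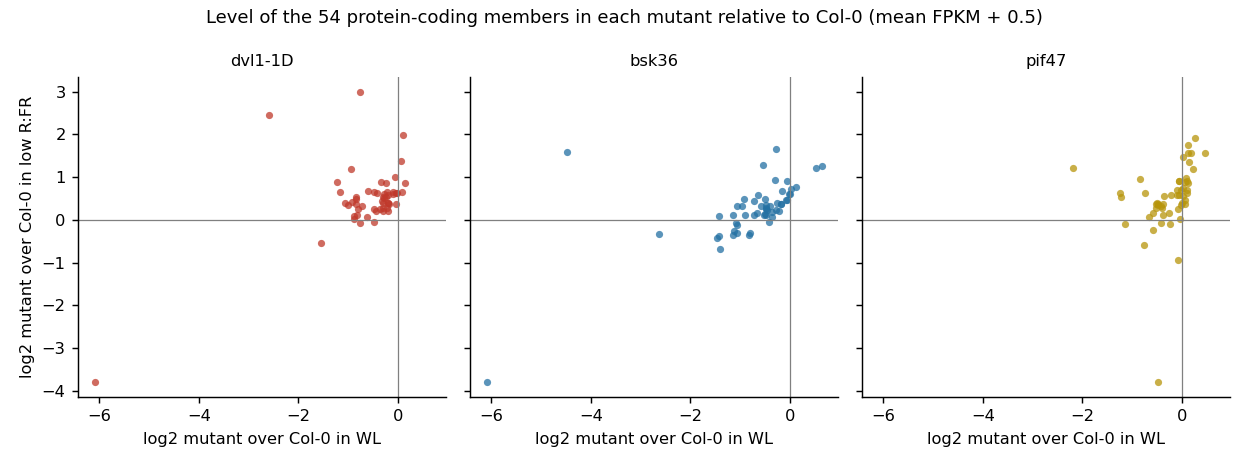
Level of the 54 nuclear protein-coding members in dvl1-1D, bsk36 and pif47 relative to Col-0, as log2 of the ratio of mean FPKM with 0.5 added, in WL (x axis) and in low R:FR (y axis). Each point is a gene. Points in the upper left were lower than in Col-0 in WL and higher in low R:FR, which holds for 46, 36 and 29 of the 54 genes. The choice of the members used the Col-0, dvl1-1D and bsk36 values.

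The best measured members were genes for chloroplast proteins. CPN60A1 and CPN60B2 encode alpha and beta subunits of the stromal chaperonin, which folds newly made proteins including the large subunit of Rubisco, and HSP70-7 encodes a stromal Hsp70 that takes part in protein import and folding. CPN60A1 had 262, 240.5 and 266 FPKM in low R:FR against 386, 386 and 361 FPKM in WL in dvl1-1D, and 245, 235 and 218 FPKM in low R:FR against 339.8, 359 and 355 FPKM in WL in bsk36. In pif47, CPN60A1 had 254, 260.4 and 251 FPKM in low R:FR against 420.3, 451 and 386 FPKM in WL. In Col-0, CPN60A1 had 197, 181 and 219 FPKM in low R:FR against 468, 399 and 411 FPKM in WL. Low R:FR libraries lay below WL libraries in every genotype. All dvl1-1D and pif47 libraries were above all Col-0 libraries in low R:FR, whereas bsk36 overlapped Col-0, and both dvl1-1D and bsk36 were below Col-0 in WL. HSP70-7 had 161, 147 and 159.7 FPKM in low R:FR against 280.3, 254 and 243 FPKM in WL in dvl1-1D, and 159, 153 and 138 FPKM in low R:FR against 196, 199 and 214 FPKM in WL in bsk36. In pif47, HSP70-7 had 148, 158 and 155 FPKM in low R:FR against 276, 305 and 261 FPKM in WL. In Col-0, HSP70-7 had 119, 111 and 128 FPKM in low R:FR against 283, 262 and 258 FPKM in WL. The WL libraries of bsk36 were below those of Col-0 without overlap, and the low R:FR libraries of all 3 mutants were above those of Col-0. The ratios of CPN60B2 were 0.675 in dvl1-1D, 0.627 in bsk36, 0.642 in pif47 and 0.426 in Col-0.

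In pif47, all of these chaperone genes fell in low R:FR. The log2 fold change was -0.86 ± 0.07 (SE, adjusted p = 6.77e-08) for HSP70-7. It was -0.71 ± 0.07 (SE, adjusted p = 8.65e-07) for CPN60A1 and -0.64 ± 0.09 (SE, adjusted p = 4.62e-05) for CPN60B2. A pair of other members named for plastid or nucleotide-binding functions behaved alike. IJ, named for Iojap, which in maize is needed for plastids to keep their ribosomes, fell by 0.69 ± 0.07 (SE) with an adjusted p of 1.84e-06. AT1G56050, annotated as an Obg-like ATPase, fell by 0.72 ± 0.08 with an adjusted p of 2.35e-06. All of these p-values came from limma with Benjamini-Hochberg adjustment over 20682 genes.

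Of the 15 other plastid chaperone genes tested, 10 fell in low R:FR in dvl1-1D, 11 in bsk36, 12 in pif47 and 13 in Col-0, and 0 rose in any genotype. Of all tested genes, 8.35% fell and 10.7% rose in dvl1-1D, 9.24% and 8.09% in bsk36, 10.1% and 8.25% in pif47, and 15.7% and 21% in Col-0. The median log2 fold change of these chaperone genes was -0.35 in dvl1-1D, -0.38 in bsk36, -0.41 in pif47 and -0.66 in Col-0. CPN60B1, another beta subunit gene, fell by 0.53 ± 0.06 in dvl1-1D, 0.62 ± 0.06 in bsk36, 0.66 ± 0.06 in pif47 and 0.94 ± 0.06 in Col-0. HSP90.5, the stromal Hsp90, fell by 0.51, 0.60, 0.52 and 0.91, in the same order and with an SE of 0.06 each. These falls were smaller in the mutants than in Col-0, but the difference was not tested. Genes that met the rule are left out of these counts. The counts against which they stand depend on the scaling: with library medians made equal, 2326 genes fell and 1614 rose in dvl1-1D, against 1727 and 2207 as deposited, and 4324 fell and 2988 rose in Col-0, against 3247 and 4353. Under that scaling, 11, 11, 12 and 13 of the 15 chaperone genes fell.

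The 5 leaf mesophyll markers, which include RBCS1A and CA1, genes of photosynthetic carbon fixation, moved with these groups in part. Of the 5, 2 fell in dvl1-1D, 0 in bsk36, 2 in pif47 and 4 in Col-0, and LHCB1.3 rose in pif47 and Col-0. Their median log2 fold changes were -0.14 in dvl1-1D, -0.01 in bsk36, -0.15 in pif47 and -0.28 in Col-0. Under equal library medians, 2, 0, 1 and 4 fell in the same order and 0 rose. Their summed level was 33723 to 36464 FPKM in low R:FR against 36316 to 38103 FPKM in WL in dvl1-1D, and 32267 to 34829 against 34001 to 36596 FPKM in bsk36. It was 35224 to 36618 against 36473 to 37999 FPKM in pif47, and 35392 to 39383 against 38629.98 to 41767 FPKM in Col-0, and the libraries overlapped between light conditions in every genotype. The part of these markers in the values of the chloroplast genes was not tested.

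Nuclear genes for plastid ribosomal proteins were examined as a second group of chloroplast genes. Of these 30 genes, 26 fell in dvl1-1D, 28 in bsk36, 30 in pif47 and 30 in Col-0. Their median log2 fold changes were -0.25 in dvl1-1D, -0.28 in bsk36, -0.35 in pif47 and -0.50 in Col-0, and with library medians made equal 27, 25, 28 and 30 fell. In pif47 the log2 fold changes of these 30 genes lay between -0.48 and -0.19.

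**Figure D3:**
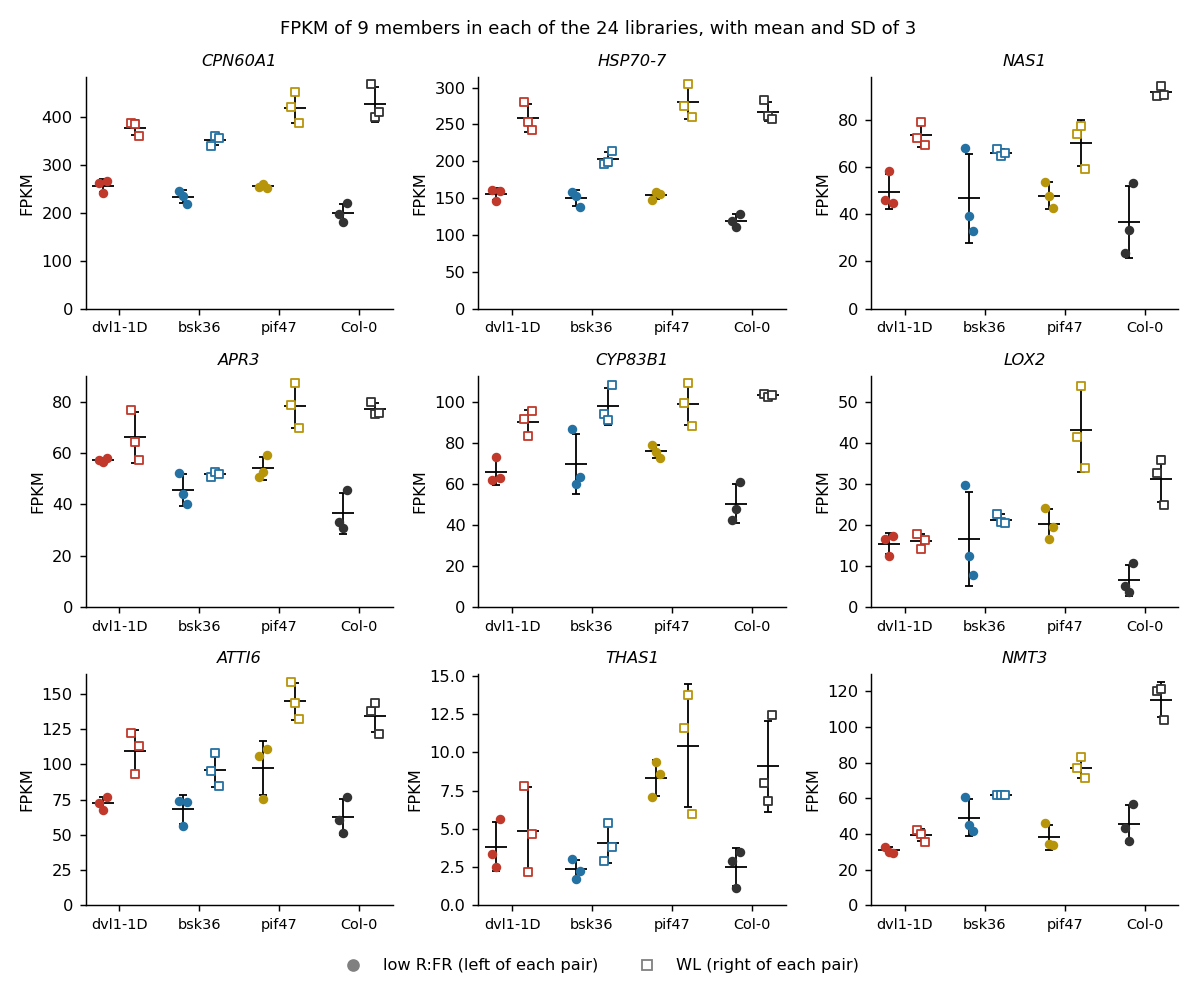
FPKM of 9 members in each of the 24 libraries. Filled circles are low R:FR, open squares are WL, black bars are the mean and SD of 3 libraries, and genotypes run from dvl1-1D, bsk36 and pif47 to Col-0. CPN60A1 and HSP70-7 have low R:FR libraries below WL libraries in every genotype, LOX2 has overlapping libraries in dvl1-1D and bsk36, and THAS1 overlaps in all genotypes but Col-0.

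Genes of iron uptake formed the next group. NAS1 encodes an enzyme that makes nicotianamine, a chelator that moves iron inside the plant, F6'H1 an enzyme for coumarins that roots release to free iron, and BHLH100 a transcription factor induced by iron deficiency. NAS1 had 45.8, 58.1 and 44.6 FPKM in low R:FR against 72.4, 78.9 and 69.1 FPKM in WL in dvl1-1D, and 68.1, 39.3 and 32.6 FPKM in low R:FR against 67.5, 64.6 and 65.99 FPKM in WL in bsk36. In pif47, NAS1 had 53.5, 47.5 and 42.4 FPKM in low R:FR against 73.96, 77.2 and 58.9 FPKM in WL. In Col-0, NAS1 had 23.3, 33.2 and 53.1 FPKM in low R:FR against 90.01, 94.3 and 90.49 FPKM in WL. Replicate 1 of bsk36 in low R:FR was as high as the WL libraries, and replicate 3 of Col-0 was the highest of its group. All mutant WL libraries were below those of Col-0. In pif47 the log2 fold change of NAS1 was -0.55 ± 0.23 (SE, adjusted p = 0.109), which missed the threshold, and that of F6'H1 was -0.32 ± 0.27 (SE, adjusted p = 0.457).

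BHLH100 fell in pif47. BHLH100 had 1.49, 1.17 and 1.58 FPKM in low R:FR against 2.49, 2.64 and 1.23 FPKM in WL in dvl1-1D, and 1.82, 1.91 and 1.36 FPKM in low R:FR against 3.35, 0.98 and 0.87 FPKM in WL in bsk36. In pif47, BHLH100 had 0.91, 0.51 and 0.57 FPKM in low R:FR against 2.02, 2.78 and 1.92 FPKM in WL. In Col-0, BHLH100 had 0.66, 0.84 and 2.27 FPKM in low R:FR against 3.57, 4.05 and 4.85 FPKM in WL. The libraries did not overlap in pif47 and Col-0 and overlapped in dvl1-1D and bsk36. Its log2 fold change in pif47 was -1.63 ± 0.42 (SE, adjusted p = 0.00969). This call was lost without replicate 2 of pif47 in WL, where the adjusted p was 0.0504.

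Of the 21 other iron deficiency genes tested, 7 fell in dvl1-1D, 8 in bsk36, 10 in pif47 and 15 in Col-0, while 1 rose in bsk36 and 1 in Col-0. In Col-0, 0 rose with library medians made equal. IRT1, the main iron transporter of the root, fell by 1.37 ± 0.36 in dvl1-1D, 1.43 ± 0.36 in bsk36, 1.85 ± 0.36 in pif47 and 1.83 ± 0.36 in Col-0. FRO2, the ferric reductase that feeds it, fell by 1.53, 1.3, 1.85 and 2.19 with an SE of 0.34 each. FIT, the transcription factor of both, had log2 fold changes of -0.23, -0.40 and -0.37 in dvl1-1D, bsk36 and pif47, which missed the threshold, and fell by 0.85 ± 0.26 in Col-0, a difference that was not tested. The summed level of the 5 root hair markers, which mark the cells that take up iron, was 42.7 to 47.9 FPKM in low R:FR against 40.9 to 46.5 FPKM in WL in dvl1-1D, and 43.8 to 79.4 against 39.4 to 55.6 FPKM in bsk36. It was 55.5 to 86.6 against 46.5 to 53.2 FPKM in pif47, and 45.6 to 68.3 against 26.7 to 41.5 FPKM in Col-0. These markers were thus not lower in low R:FR in any genotype, and did not overlap between light conditions in pif47 and Col-0. The sum of the 7 endodermis markers was 64.5 to 95.4 against 56.6 to 60.0 FPKM in pif47 and overlapped between light conditions in the other genotypes.

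APR3 and CYP83B1 belong to sulfur use. APR3 encodes an adenylyl sulfate reductase, the enzyme of sulfate reduction, and its name appears as a date in the deposited values, so it was identified by its locus code AT4G21990. APR3 had 57.3, 56.4 and 58.03 FPKM in low R:FR against 76.8, 64.3 and 57.4 FPKM in WL in dvl1-1D, and 52.4, 44.1 and 40.1 FPKM in low R:FR against 50.8, 52.6 and 51.8 FPKM in WL in bsk36. In pif47, APR3 had 50.5, 52.6 and 59.1 FPKM in low R:FR against 78.8, 87.2 and 69.6 FPKM in WL. In Col-0, APR3 had 33.3, 30.7 and 45.7 FPKM in low R:FR against 79.95, 75.3 and 75.8 FPKM in WL. The groups overlapped in dvl1-1D and bsk36 and not in pif47 and Col-0. In bsk36 the WL libraries were all below those of Col-0. APR3 fell in pif47, with a log2 fold change of -0.53 ± 0.12 (SE, adjusted p = 0.0044).

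CYP83B1 encodes the cytochrome P450 that commits indole aldoximes to glucosinolates, the sulfur-containing defence compounds of this plant family. CYP83B1 had 61.7, 73.4 and 63 FPKM in low R:FR against 91.4, 83.5 and 95.5 FPKM in WL in dvl1-1D, and 86.6, 59.8 and 63.1 FPKM in low R:FR against 94.1, 91.2 and 108 FPKM in WL in bsk36. In pif47, CYP83B1 had 78.8, 75.8 and 72.8 FPKM in low R:FR against 99.3, 109 and 88.4 FPKM in WL. In Col-0, CYP83B1 had 42.4, 47.6 and 60.96 FPKM in low R:FR against 104, 103 and 103 FPKM in WL. Low R:FR libraries were below WL libraries in every genotype, and all dvl1-1D and pif47 libraries in low R:FR were above all Col-0 libraries. The log2 fold change in pif47 was -0.38 ± 0.13 (SE, adjusted p = 0.0417). This call was the least stable of all, being lost in 7 of 13 alternatives.

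Of the 14 other sulfate genes tested, 6 fell in dvl1-1D, 6 in bsk36, 8 in pif47 and 11 in Col-0, and 0 rose. APR1, which also encodes an adenylyl sulfate reductase, fell by 0.93 ± 0.16 in bsk36, 0.80 ± 0.16 in pif47 and 1.76 ± 0.16 in Col-0, and was at -0.39 ± 0.16 in dvl1-1D, which missed the threshold. APK2, which makes the sulfate donor for glucosinolates, fell by 1.03, 1.55, 0.89 and 1.85 in dvl1-1D, bsk36, pif47 and Col-0 with an SE of 0.18 each. Of the 11 other genes of indole glucosinolate synthesis, 6 fell in dvl1-1D, 8 in bsk36, 6 in pif47 and 8 in Col-0, and 0 rose. CYP79B3, which acts one step before CYP83B1, fell by 0.68, 1.16, 0.58 and 1.28, in the same order and with an SE of 0.12 each. CYP79B3, like CYP83B1 itself, was thus lower in low R:FR in all 4 genotypes.

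**Figure D4:**
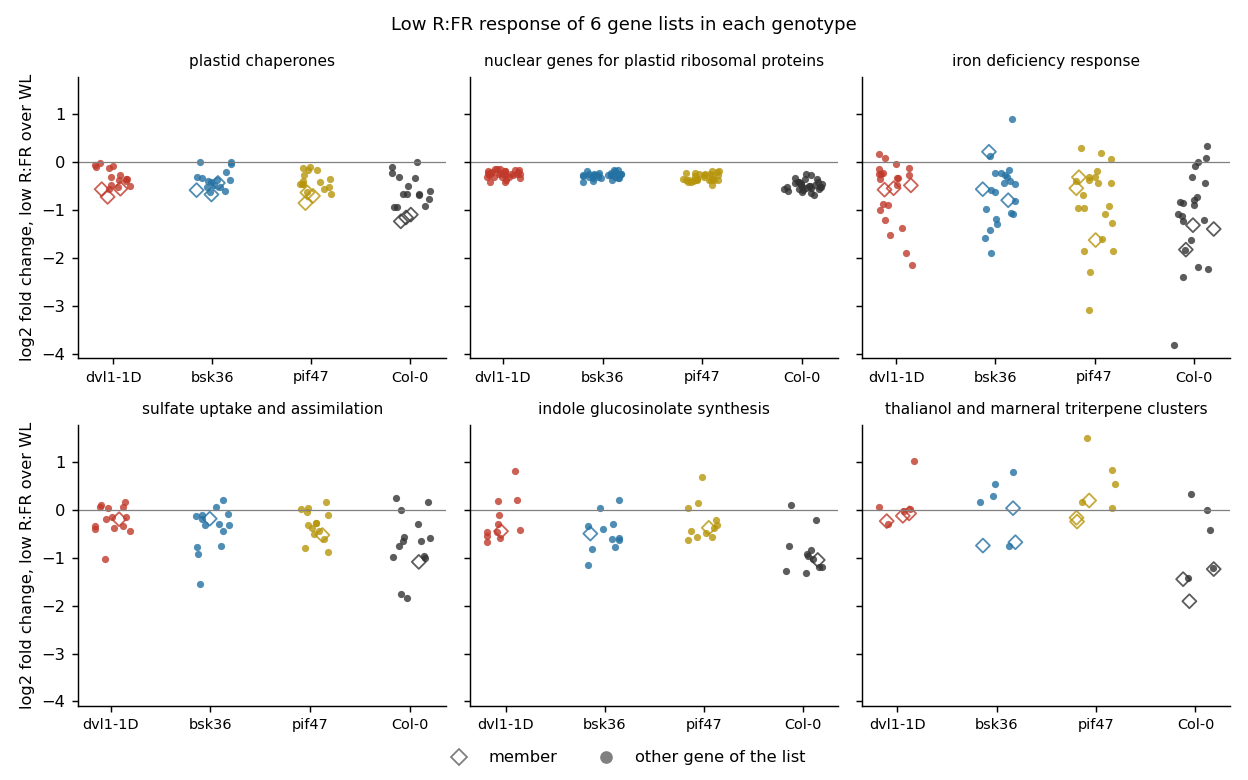
Log2 fold change of low R:FR over WL on the log2(FPKM + 0.1) scale for the genes of 6 lists in dvl1-1D, bsk36, pif47 and Col-0. Diamonds are members and filled circles are the other genes of each list. Chaperone and plastid ribosomal protein genes lie below 0 in nearly all cases in every genotype.

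LOX2 and VSP1 are jasmonate genes. LOX2 encodes the plastid lipoxygenase of jasmonate synthesis, and VSP1 a vegetative storage protein that jasmonate induces. LOX2 had 16.5, 12.5 and 17.4 FPKM in low R:FR against 17.8, 14.2 and 16.2 FPKM in WL in dvl1-1D, and 29.7, 12.5 and 7.89 FPKM in low R:FR against 22.8, 20.7 and 20.6 FPKM in WL in bsk36. In pif47, LOX2 had 24.3, 16.7 and 19.6 FPKM in low R:FR against 41.6, 54 and 33.9 FPKM in WL. In Col-0, LOX2 had 5.18, 3.64 and 10.8 FPKM in low R:FR against 32.8, 35.97 and 24.99 FPKM in WL. The libraries overlapped in dvl1-1D and bsk36, where replicate 1 of bsk36 in low R:FR was the highest of the 6, and did not overlap in pif47 and Col-0. All mutant libraries in low R:FR, apart from replicate 3 of bsk36, were above all Col-0 libraries. LOX2 fell in pif47 by 1.08 ± 0.36 on the log2 scale (SE, adjusted p = 0.041), a call lost in 5 of 13 alternatives, with a largest adjusted p of 0.158. VSP1 had a log2 fold change of -0.27 ± 0.38 (SE, adjusted p = 0.693) in pif47, and its ratios were 0.989 in dvl1-1D, 0.823 in bsk36, 0.804 in pif47 and 0.45 in Col-0.

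Of the 10 other jasmonate genes tested, 2 fell and 3 rose in dvl1-1D, 1 fell and 3 rose in bsk36, 6 fell and 1 rose in pif47, and 5 fell and 1 rose in Col-0. AOC2, an allene oxide cyclase that acts after LOX2 in the pathway, rose by 0.46 ± 0.12 in dvl1-1D and 0.36 ± 0.12 in bsk36 and fell by 0.68 ± 0.12 in pif47. In Col-0 its log2 fold change was -0.15 ± 0.12. MYC2, a transcription factor of jasmonate responses, rose in all 4 genotypes, by 0.48, 0.38, 0.43 and 0.46 with an SE of 0.13 each.

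GSTF6, GSTF7, GSTL1 and CYP71A12 are linked to detoxification and defence. GSTF6 and GSTF7 encode near-identical glutathione S-transferases and lie next to each other, with 0 protein-coding genes between them, so reads may have been divided between them and the separate values are uncertain. GSTF6 had 5.94, 18.3 and 8.37 FPKM in low R:FR against 7.22, 6.06 and 7.51 FPKM in WL in dvl1-1D, and 6.06, 4.11 and 4.99 FPKM in low R:FR against 6.04, 4.90 and 6.08 FPKM in WL in bsk36. In pif47, GSTF6 had 6.36, 5.83 and 17.8 FPKM in low R:FR against 6.70, 9.72 and 3.37 FPKM in WL. In Col-0, GSTF6 had 3.37, 7.28 and 9.64 FPKM in low R:FR against 13.8, 14.8 and 19.4 FPKM in WL. Replicate 2 of dvl1-1D and replicate 3 of pif47 in low R:FR were far above the other libraries of their groups, and GSTF7 showed the same with 29.2 and 24.3 FPKM. CYP71A12, a P450 of the pathway of camalexin and other indole defence compounds, was at 8.49 and 3.10 FPKM in these same libraries. Its Col-0 level was 0.27, 0.11 and 0.15 FPKM in low R:FR against 3.11, 0.86 and 5.41 FPKM in WL, and its other mutant libraries were at 0 to 0.88 FPKM. The ratios of 6.11 in dvl1-1D and 1.97 in pif47 for CYP71A12 rest on a single library each. In pif47 none of these genes passed the test, the log2 fold changes being 0.52 ± 0.44 for GSTF6, 0.36 ± 0.43 for GSTF7, 0.23 ± 1.07 for CYP71A12 and -0.99 ± 0.37 for GSTL1.

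GSTL1, a lambda class glutathione S-transferase, was better measured. GSTL1 had 3.40, 4.18 and 3.19 FPKM in low R:FR against 6.38, 6.75 and 4.73 FPKM in WL in dvl1-1D, and 3.30, 1.15 and 1.13 FPKM in low R:FR against 3.17, 1.72 and 2.16 FPKM in WL in bsk36. In pif47, GSTL1 had 2.74, 2.34 and 2.04 FPKM in low R:FR against 4.11, 5.17 and 5.11 FPKM in WL. In Col-0, GSTL1 had 0.87, 1.16 and 3.17 FPKM in low R:FR against 7.68, 6.31 and 7.36 FPKM in WL. Low R:FR libraries were below WL libraries in dvl1-1D, pif47 and Col-0, and the groups overlapped in bsk36, which had the lowest WL level. Of the 11 other phi and lambda genes tested, 4 fell and 2 rose in dvl1-1D, 4 fell and 1 rose in bsk36, 4 fell and 0 rose in pif47, and 5 fell and 1 rose in Col-0. With library medians made equal, 5 fell and 0 rose in Col-0. PAD3, which completes camalexin, was the other camalexin gene tested and was not called in any genotype, with log2 fold changes of 0.43, -0.15, 0.19 and -0.42 in dvl1-1D, bsk36, pif47 and Col-0.

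PDF2.1 and ATTI6 encode small secreted defence proteins, a defensin and a trypsin inhibitor. ATTI6 had 72.5, 67.8 and 76.5 FPKM in low R:FR against 123, 93.2 and 113 FPKM in WL in dvl1-1D, and 74.3, 56.4 and 73.5 FPKM in low R:FR against 94.99, 108 and 84.5 FPKM in WL in bsk36. In pif47, ATTI6 had 106, 75.6 and 111 FPKM in low R:FR against 159, 143 and 132 FPKM in WL. In Col-0, ATTI6 had 60.2, 51.5 and 76.5 FPKM in low R:FR against 138, 143 and 122 FPKM in WL. Groups did not overlap in any genotype. ATTI6 fell in pif47 with a log2 fold change of -0.59 ± 0.15 (SE, adjusted p = 0.00984). This call was lost in 2 of 13 alternatives, without replicate 2 of pif47 in low R:FR or replicate 1 of pif47 in WL, with a largest adjusted p of 0.0755. PDF2.1 had a WL level of 31.5 to 31.9 FPKM in Col-0, above all other libraries of any genotype, and a log2 fold change of -0.30 ± 0.25 (SE, adjusted p = 0.46) in pif47. The 5 other genes of these families were not called in the mutants. In Col-0, PDF2.2 rose by 0.36 ± 0.09 and ATTI2 by 0.35 ± 0.13, and PDF2.3 fell by 0.37 ± 0.10. With library medians made equal, 1 of the 5 rose and 1 fell in Col-0.

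THAS1, CYP708A2 and CYP705A5 form most of the thalianol gene cluster, in which neighbouring genes encode the steps from squalene epoxide to triterpenes of the root. The 3 genes are direct neighbours, with 0 protein-coding genes between them. THAS1 had 3.38, 2.50 and 5.61 FPKM in low R:FR against 7.80, 2.17 and 4.67 FPKM in WL in dvl1-1D, and 3.02, 1.73 and 2.27 FPKM in low R:FR against 2.91, 5.40 and 3.81 FPKM in WL in bsk36. In pif47, THAS1 had 7.06, 9.38 and 8.58 FPKM in low R:FR against 11.6, 13.8 and 5.98 FPKM in WL. In Col-0, THAS1 had 2.88, 1.13 and 3.49 FPKM in low R:FR against 7.98, 6.84 and 12.4 FPKM in WL. The libraries overlapped in all mutants and not in Col-0, where replicate 3 in WL was the highest. CYP708A2 and CYP705A5 followed the same libraries: replicate 2 of dvl1-1D and replicate 3 of pif47 in WL were the lowest of their groups for all 3 genes, and replicate 3 of Col-0 the highest. The levels in pif47 were the highest of the mutants in both light conditions for CYP708A2, at 7.97, 11.8 and 11.6 FPKM in low R:FR against 14.2, 15.2 and 7.12 FPKM in WL in pif47.

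In pif47, the log2 fold changes were -0.25 ± 0.44 (SE, adjusted p = 0.755) for THAS1, -0.17 ± 0.41 (SE, adjusted p = 0.829) for CYP708A2 and 0.19 ± 0.37 (SE, adjusted p = 0.776) for CYP705A5, and none passed the test. Of the 5 other thalianol and marneral genes tested, 0 were called in dvl1-1D and bsk36, 3 rose in pif47 and 2 fell in Col-0. BAHD1, an acyltransferase gene of the thalianol cluster, fell by 1.21 ± 0.39 in Col-0, and CYP705A12, of the marneral cluster, by 1.43 ± 0.44. In pif47, MRN1, the marneral synthase gene, rose by 1.5 ± 0.41, CYP71A16 by 0.83 ± 0.27 and AT5G47950 by 0.54 ± 0.18. With library medians made equal, 1 of the 5 rose in bsk36. The endodermis and root hair marker sums given above for pif47 were higher in low R:FR, and their part in these values was not tested.

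Other protein-coding members act in metabolism, transport and signaling. NMT3 encodes a phosphoethanolamine N-methyltransferase, an enzyme family of phosphocholine synthesis. NMT3 had 32.8, 30.2 and 29.6 FPKM in low R:FR against 42.2, 39.9 and 35.7 FPKM in WL in dvl1-1D, and 60.9, 44.8 and 41.8 FPKM in low R:FR against 62.1, 61.8 and 61.6 FPKM in WL in bsk36. In pif47, NMT3 had 46.4, 34.5 and 33.6 FPKM in low R:FR against 76.95, 83.4 and 71.4 FPKM in WL. In Col-0, NMT3 had 43.6, 35.8 and 56.8 FPKM in low R:FR against 120.5, 121 and 104 FPKM in WL. All mutant libraries in WL were below all Col-0 libraries, with dvl1-1D the lowest, while in low R:FR the dvl1-1D libraries were also below those of Col-0. NMT3 fell in pif47 with a log2 fold change of -1.03 ± 0.15 (SE, adjusted p = 5.35e-05). Its paralog NMT1 rose by 0.57 ± 0.11 in dvl1-1D and 0.78 ± 0.11 in bsk36, and its log2 fold changes in pif47 and Col-0 were -0.32 ± 0.11 and 0.07 ± 0.11, neither of which passed the test (limma, adjusted p = 0.0509 in pif47 and 0.646 in Col-0). Both NMT1 and a further paralog, NMT2, fell in pif47 with library medians made equal, and NMT2 fell in Col-0 as well.

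ALMT5, of the aluminum-activated malate transporter family of anion channels, lay exactly at the Col-0 limit of the rule. ALMT5 had 5.39, 5.01 and 5.64 FPKM in low R:FR against 5.87, 5.51 and 3.98 FPKM in WL in dvl1-1D, and 6.65, 5.40 and 5.51 FPKM in low R:FR against 9.02, 8.32 and 7.31 FPKM in WL in bsk36. In pif47, ALMT5 had 5.28, 3.31 and 3.59 FPKM in low R:FR against 7.73, 8.03 and 7.69 FPKM in WL. In Col-0, ALMT5 had 4.86, 3.82 and 4.52 FPKM in low R:FR against 9.28, 10.7 and 7.88 FPKM in WL. The groups overlapped in dvl1-1D, where the WL libraries were the lowest of any genotype. It fell in pif47 with a log2 fold change of -0.96 ± 0.16 (SE, adjusted p = 0.000293). NDK4, a nucleoside diphosphate kinase gene, had the largest fall among the called members in pif47, at -3.00 ± 0.71 (SE, adjusted p = 0.00499), with 0.23, 0.61 and 0 FPKM in low R:FR against 2.18, 1.79 and 2.66 FPKM in WL in pif47 and 0, 0.36 and 0.43 FPKM in low R:FR against 2.33, 2.82 and 1.74 FPKM in WL in Col-0. Its mutant ratios of 1.00 in dvl1-1D and 1.04 in bsk36 came with overlapping libraries. MLP43, of the major latex protein family, fell in pif47 by 0.48 ± 0.11 with an adjusted p of 0.00549.

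AHP4, a histidine phosphotransfer protein of the cytokinin relay, GDU4, a regulator of amino acid export, AT3G21950 and AT1G78860 also fell in pif47. Their log2 fold changes were -0.86 ± 0.26, -0.40 ± 0.13, -0.53 ± 0.15 and -0.97 ± 0.26, and each lost its call in 4 or 5 of the alternatives. GLN1;4, a cytosolic glutamine synthetase gene, had a log2 fold change of -0.24 ± 0.17 (SE, adjusted p = 0.365) in pif47. Of the 5 other glutamine synthetase genes tested, 1 fell in each mutant and 2 fell in Col-0, and with library medians made equal 2 fell in dvl1-1D, 2 in bsk36, 1 in pif47 and 2 in Col-0. GLN1;2 fell by 0.42, 0.40, 0.36 and 0.72 in dvl1-1D, bsk36, pif47 and Col-0 with an SE of 0.13 each.

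The remaining 23 protein-coding members did not pass the test in pif47. Their log2 fold changes lay between -3.16 ± 2.41 for AT1G53541, which was read in 3 libraries, and 0.80 ± 0.49 for AT2G27389. Among them, and named after their values were seen, XTH20, a xyloglucan endotransglucosylase gene of cell wall growth, was at -0.75 ± 0.29 (SE, adjusted p = 0.0735), PPT2, a plastid phosphoenolpyruvate translocator gene, at -0.31 ± 0.21 (SE, adjusted p = 0.353), and PILS7, of an auxin carrier family, at 0.06 ± 0.35 (SE, adjusted p = 0.937). PILS7 had ratios of 1.08 in dvl1-1D, 0.933 in bsk36, 1.02 in pif47 and 0.395 in Col-0.

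Over all 89 members, 20 fell and 0 rose in pif47 by limma with Benjamini-Hochberg adjusted p under 0.05. This is 22.5% of the members, against 10.1% of all tested genes that fell in pif47 and 8.25% that rose. Of the 54 protein-coding members, 19 fell, or 35.2%, and of the other 35 members 1 fell. At an unadjusted p under 0.05, 28 members were lower and 2 higher. The median log2 fold change in pif47 was -0.38 for the members, -0.44 for the protein-coding members and 0.03 for all tested genes. All 89 members passed the filter of the test, a mean of at least 0.5 FPKM. Without replicate 1 or replicate 2 of pif47 in WL, 13 members fell. At the thresholds of the study, a change of at least 1 on the log2 scale with an unadjusted p of at most 0.01, 5 members fell and 0 rose, NDK4, BHLH100, LOX2 and NMT3 among them, against 0.392% of all genes that fell and 0.701% that rose.

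Of the 155 other genes with a ratio of at most 0.5 in Col-0, 69 fell in pif47, or 44.5%, and 0 rose, with a median log2 fold change of -0.73. Their median ratio was 0.565 in dvl1-1D, 0.501 in bsk36, 0.630 in pif47 and 0.375 in Col-0. The members had median ratios of 0.810, 0.834, 0.782 and 0.420, and the protein-coding members alone 0.783, 0.731, 0.766 and 0.438. The sets differed in make-up, since non-coding RNAs were 34.8% of the members and 14.8% of the other genes. The other set also holds LSU1 and LSU2, which met the limits of the rule. In pif47, the members had a smaller median response than the other repressed genes. The sets were split by the response in dvl1-1D and bsk36, so this is not independent of the choice where genotypes share a response. Nothing is read from the Col-0 ratios, which the rule used. The difference between these sets was not tested.

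**Figure D5:**
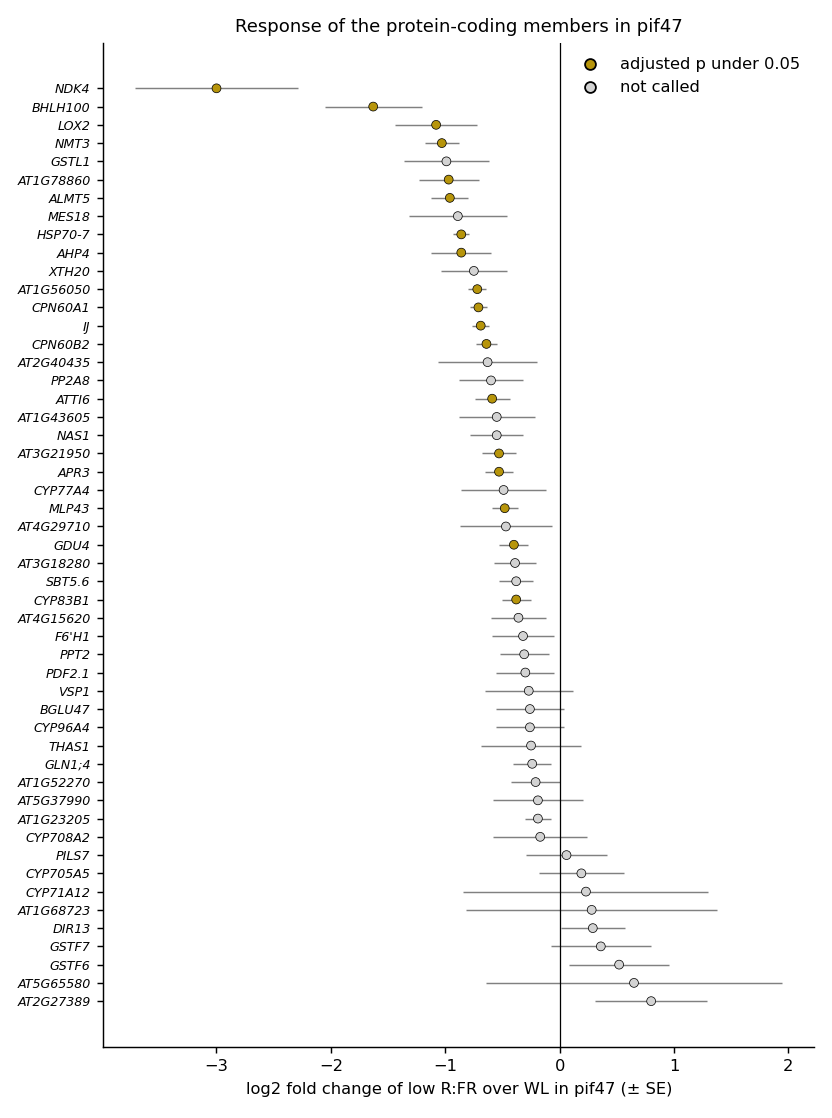
Log2 fold change of low R:FR over WL in pif47 on the log2(FPKM + 0.1) scale for 51 of the 54 nuclear protein-coding members, with SE as bars, ordered by size. AT2G12461 and AT1G53541, with an SE above 1.5, are among those left out. The 18 genes shown with an adjusted p under 0.05 all lie below 0, between NDK4 at -3.00 and CYP83B1 at -0.38.

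The non-coding members include 2 microRNA genes, 19 lncRNA genes, 6 snoRNA genes, 2 antisense RNA genes, 1 snRNA gene and 1 other RNA gene. Use of strand in the counting is not given, so reads of an antisense gene and of its partner cannot be told apart. MIR157C, the precursor of a microRNA that targets SPL transcription factors of leaf and phase development, was read in all libraries. MIR157C had 5.28, 4.32 and 3.39 FPKM in low R:FR against 8.42, 7.26 and 6.85 FPKM in WL in dvl1-1D, and 7.50, 6.99 and 8.53 FPKM in low R:FR against 11.9, 14.2 and 11.5 FPKM in WL in bsk36. In pif47, MIR157C had 10.9, 12.4 and 12.3 FPKM in low R:FR against 9.91, 12.1 and 15.1 FPKM in WL. In Col-0, MIR157C had 6.44, 4.21 and 5.94 FPKM in low R:FR against 10.5, 13.03 and 13.5 FPKM in WL. Low R:FR libraries were below WL libraries in dvl1-1D, bsk36 and Col-0, and the groups overlapped in pif47, where the log2 fold change was -0.04 ± 0.17 (SE, adjusted p = 0.909). Of the 10 SPL genes tested, 1 rose in dvl1-1D, 0 in bsk36, 1 in pif47 and 5 in Col-0, and 0 fell. SPL2 rose by 0.59 ± 0.14 in pif47 and 0.64 ± 0.14 in Col-0, SPL10 by 0.59 ± 0.14 in Col-0 and SPL13B by 0.93 ± 0.28 in Col-0. With library medians made equal, 0 rose in dvl1-1D and 4 in Col-0. FPKM from poly(A) RNA measure the precursor transcript, not the mature microRNA.

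AT2G08480 was the one non-coding member that fell in pif47. AT2G08480 had 7.83, 8.65 and 6.05 FPKM in low R:FR against 7.49, 9.06 and 8.78 FPKM in WL in dvl1-1D, and 10.4, 11.7 and 7.56 FPKM in low R:FR against 14.1, 10.9 and 16.3 FPKM in WL in bsk36. In pif47, AT2G08480 had 8.26, 9.14 and 7.74 FPKM in low R:FR against 18.3, 17.96 and 13.8 FPKM in WL. In Col-0, AT2G08480 had 7.30, 5.54 and 2.15 FPKM in low R:FR against 15.9, 10.4 and 11.8 FPKM in WL. Low R:FR libraries were below WL libraries in pif47 and Col-0 and overlapped in dvl1-1D and bsk36. The log2 fold change in pif47 was -0.98 ± 0.29 (SE, adjusted p = 0.0233), a call lost in 4 of 13 alternatives. The members with the smallest p among those higher in pif47 were AT2G08330, at 4.01 with an adjusted p of 0.0821, AT2G04955, at 4.71 with 0.144, and AT2G27389, at 0.80 with 0.287.

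Of the 8 members with the lowest Col-0 ratios, 6 were non-coding RNA genes and 2 were plastid genes, and all but AT3G03215 were at 0 in 15 or more of the 24 libraries. AT2G08330, with the lowest ratio of 0.0201, was at 0 in the 3 low R:FR libraries of Col-0 and at 35.8, 20.4 and 16.9 FPKM in its WL libraries. It was at 0 in all bsk36 libraries and at 25.3 FPKM in replicate 2 of dvl1-1D in low R:FR. MIR166B was above 0 in 4 of the 24 libraries, at 25.7 to 32.5 FPKM. SNOR37-2 and AT1G09533 were read in 3 and 8 libraries. AT2G04955 was at 14.6 FPKM in replicate 1 of Col-0 in WL and at 0 in all other WL libraries of every genotype. AT3G03215, at 0 in 4 libraries, was at 1.57, 0.97 and 0 FPKM in low R:FR against 1.36, 13.3 and 8.46 FPKM in WL in Col-0.

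Of the 4 plastid genes, 2 were read in a single library. RPS12A was at 35.04 FPKM in replicate 2 of Col-0 in WL and RPL36 at 42.6 FPKM in replicate 3, and each was at 0 in the other 23 libraries. A mutant ratio of 1 for such a gene records that both light conditions were at 0. RPS12B and RPS12C, copies of 1 gene in the plastid repeat, had the same value in every library, were at 0 in 1 library and count as 1 measurement. Their Col-0 level was 0.52, 0.43 and 1.00 FPKM in low R:FR against 2.78, 0.71 and 2.69 FPKM in WL. Plastid transcripts largely lack long poly(A) tails, and these libraries were made from poly(A) RNA.

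Single libraries bore on membership as a whole. Each library of Col-0, dvl1-1D and bsk36 was left out of the ratios in turn, while the mean FPKM limit was kept over all 24 libraries. In all 18 cases, 21 of the 89 members met the limits, 17 of them protein-coding. The mean FPKM of a member resting on a single library was thus not retested. With the median of 3 libraries in place of the mean in the ratios, 97 genes met the rule and 48 of them were members.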

How the data were processed

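RNA from whole seedlings was sequenced as poly(A) RNA on an Illumina instrument by a company, in 24 libraries from 8 groups of 3. The authors deposited FPKM values for 32833 genes, calculated before deposit. The submitters' processing notes name fastp, cutadapt, HISAT2, DESeq2 and TAIR10, and their settings are not given in the sources used here. The 8 deposited columns of group means were not used. Because FPKM are not counts, no count model was run. Read depth is unknown, so no counting interval was computed.

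Genes with a mean of at least 0.5 FPKM (20682) were put on the log2(FPKM + 0.1) scale. They were fitted by limma (version 3.58.1 under R 4.3.3, mean-variance trend), with 1 mean for each of the 8 groups. The contrast was low R:FR minus WL within a genotype, with a call at p under 0.05 after Benjamini-Hochberg adjustment. Fold changes on this scale can understate the change of low genes, and single libraries at 0 can enlarge it. The script was tested on simulated data. Ratios and tables were computed with pandas 2.3.3 in Python 3.11.15.

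The members, the 16 gene lists and the tests were chosen with earlier results of these data known. Members are named if they are in a list, among the 8 with the lowest Col-0 ratio, the 8 with the highest mean FPKM, the 5 with the smallest adjusted p in pif47 in each direction, or the 3 nearest inside a limit. NDK4, AHP4, GDU4, AT3G21950, AT1G78860 and AT2G08480 met none of these and were named after they were called in pif47. Some further members, among them XTH20, PPT2 and PILS7, were also named after their values were seen. Types of genes came from RefSeq (TAIR10.1), in which 32548 locus codes were found. Names came from the deposited values or, for genes of the lists, from the symbols in the lists. The values of 1 member are not reported here. No coordinates or sequences are given. Alternatives varied the added constant, the filter, the scaling, the replicate term, the libraries and the thresholds. The alternative that made library medians equal was added for the lists after the data were seen.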

Additional observations from a re-analysis of the deposited data

Results flagged for a closer look

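For 8 genes of the lists, none of them a member, every low R:FR library was above every WL library in a genotype and below every WL library in another. These differences between genotypes were not tested. The share of all genes with such opposite orders was not computed, so nothing is read from this count. Complete orders were common in single genotypes. Every low R:FR library was below every WL library for 15.7% of all tested genes in dvl1-1D and 18.4% in Col-0. The values that follow are log2 fold changes of low R:FR over WL. MYB10, a transcription factor of iron deficiency, was at 0.89 in bsk36 and -0.97 in pif47. SDI2, a gene of sulfur deficiency, was at 0.16 in dvl1-1D and -0.65 in Col-0. AOS, of jasmonate synthesis, was at 0.16 in bsk36, -0.29 in pif47 and -0.41 in Col-0. AOC2, of the same pathway, was at -0.68 in pif47, 0.46 in dvl1-1D and 0.36 in bsk36. ATTI2, a trypsin inhibitor gene, was at -0.30 in pif47 and 0.35 in Col-0. NMT1, a paralog of NMT3, was at -0.32 in pif47, 0.57 in dvl1-1D and 0.78 in bsk36. NMT2, another paralog, was at 0.11 in dvl1-1D, -0.22 in pif47 and -0.21 in Col-0. SPL10 was at -0.16 in dvl1-1D and 0.59 in Col-0.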

How the results depend on the processing

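The number of members that fell in pif47, 20 of 89, lay between 13 and 21 when each pif47 library was left out in turn. It was 13 without replicate 1 or replicate 2 of pif47 in WL and 5 at the thresholds of the study, and between 15 and 21 under the other constants, filters and scalings and with the pif47 libraries alone. Of the 20 called members, 11 were called in every alternative in which they were tested, the thresholds of the study apart, and no direction turned. The number of genes that met the rule, 89, lay between 73 and 171 when each library was left out of the ratios in turn. It was 171 when Col-0 low R:FR replicate 3 was left out. It was 120 with 0.1 added, 72 with 1 added and 97 with medians in the ratios. The mean FPKM limit was kept over all 24 libraries in each of these cases. The number of list genes called in each direction, summed over the lists in each genotype, stayed within 1.5 times under every alternative run. With library medians made equal, counts of single lists moved by more for N-methyltransferases, glutamine synthetases and 6 other lists, as given with each. Deviations of libraries from their group means were compared between light conditions. Correlations of same-numbered libraries lay between -0.0247 and 0.0867, under 0.1 in each genotype, and those of differently numbered libraries between -0.114 and 0.0811. Whether same-numbered libraries shared a culture or batch cannot be told from these values. With the replicate block, 19 members fell in pif47. Reads per gene are unknown, so a value at 0 gives no limit of detection, and the 35 non-coding and plastid members had a median SE of 1.52 on the log2 scale, against 0.28 for the 54 protein-coding members.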
